A study of Homo sapiens with 40 samples.

Results

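The comparison described here set cells given decitabine and talazoparib together against cells given talazoparib alone, both sampled at day 5, so that what differed between the groups was the presence of decitabine. Its members were chosen by their labels: the 2 libraries of 786-0 cells with SETD2 intact (WT), treated with 100 nM DAC and 10 nM BMN, and the 2 libraries of the same cells treated with 10 nM BMN, which makes 4 of the 40 libraries of the series. 786-0 is an established human clear cell renal cell carcinoma line without functional VHL, and the WT form and the SETD2 knockout form (KO) each stand for a single line whose clonal origin was not given in the sources used here. The other groups used below each had 2 libraries. They were WT cells left untreated at day 0 and WT cells given 100 nM DAC alone and sampled at day 5. KO cells given the same combination or BMN alone were sampled at day 5, and WT cells given either were also sampled at days 16 and 26. The sample titles give a day and doses, not how long the drugs were present. All groups were 786-0 cells, and no untreated cells were sampled after day 0. Nothing in the labels tells if replicates came from separate cultures, so p-values below measure only the spread between replicate libraries, which may be technical. That spread was estimated over all 40 libraries of the series together, although some groups varied more between replicates than others.

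Decitabine (DAC) is a cytidine analogue that is built into new DNA and traps DNA methyltransferases, so that methylation is lost as cells divide. Genes kept silent by promoter methylation, among them germline genes that tumours can re-express, are known to respond, as are interferon-stimulated genes, which cells turn on when they sense double-stranded RNA or cytosolic DNA. Talazoparib (BMN673) blocks PARP enzymes, which signal and help to repair DNA strand breaks, and holds them on damaged DNA.

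Total RNA was sequenced, and values are given as CPM, a library's counts scaled to a common total. The 2 BMN libraries held 18866462 and 21721475 counts and the 2 combination libraries 18401196 and 18852298, within the range of 17833960 to 22631101 of the whole series. Counts above 0 were found for 27073 and 27696 genes with BMN alone and for 29790 and 30204 genes with the combination. Among genes of at least 5 CPM the median difference between replicates was 1.042-fold with BMN and 1.062-fold with the combination. The kidney tumour markers PAX8, PAX2, CDH6, CDH2, KRT8, KRT18 and VIM were present in all 4 libraries. Defining markers of blood cells and endothelium were at or near 0: CD3E had 0 counts in all 4 libraries, PTPRC had 0 and 0 counts with BMN and 1 and 3 with the combination, and PECAM1 had 0 and 1 counts with BMN and 0 and 0 with the combination. Of the 4 defining fibroblast markers, PDGFRA had 0 and 0 counts with BMN and 0 and 2 with the combination, but the other 3 were called higher. PDGFRB went from 89 and 116 counts with BMN to 420 and 503 with the combination (adjusted p = 1.1e-15), LUM from 43 and 29 to 195 and 223 (adjusted p = 2.3e-11) and DCN from 0 and 0 to 9 and 10 (adjusted p = 0.00039).

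Adding DAC to BMN raised many genes from near silence and lowered fewer, most of those by less. Of 22527 genes tested, 7988 (35.5%) passed edgeR's quasi-likelihood test at a Benjamini-Hochberg adjusted p below 0.05, the call used throughout. Of these, 4461 (19.8%) were higher and 3527 (15.7%) lower with the combination. The median log2 difference over all genes tested was 0.01. A change of at least 2-fold was called for 2587 genes upward (11.5%) and 521 downward (2.31%), and 1787 of the rises reached 4-fold. Of the 2587 rises, 1883 (72.79%) began below 1 CPM with BMN alone, against 32.09% of all genes tested. A gene that low with BMN could enter the test only through groups where it was higher, so that share is partly set by the filter on low counts and supports nothing by itself. A p below 0.05 before adjustment was found for 9725 genes. The shares of 19.8% higher and 15.7% lower stand beside the counts of every gene list called in this contrast below. In lists with members near 0 with BMN, the filter on low counts partly sets the share called higher. The libraries of the 2 groups did not overlap in CPM for 15620 of the 22527 genes tested. Among the 4461 genes called higher they did not overlap for 4457. Where groups are said below not to overlap, this describes the values and adds no support to the call.

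**Figure D1:**
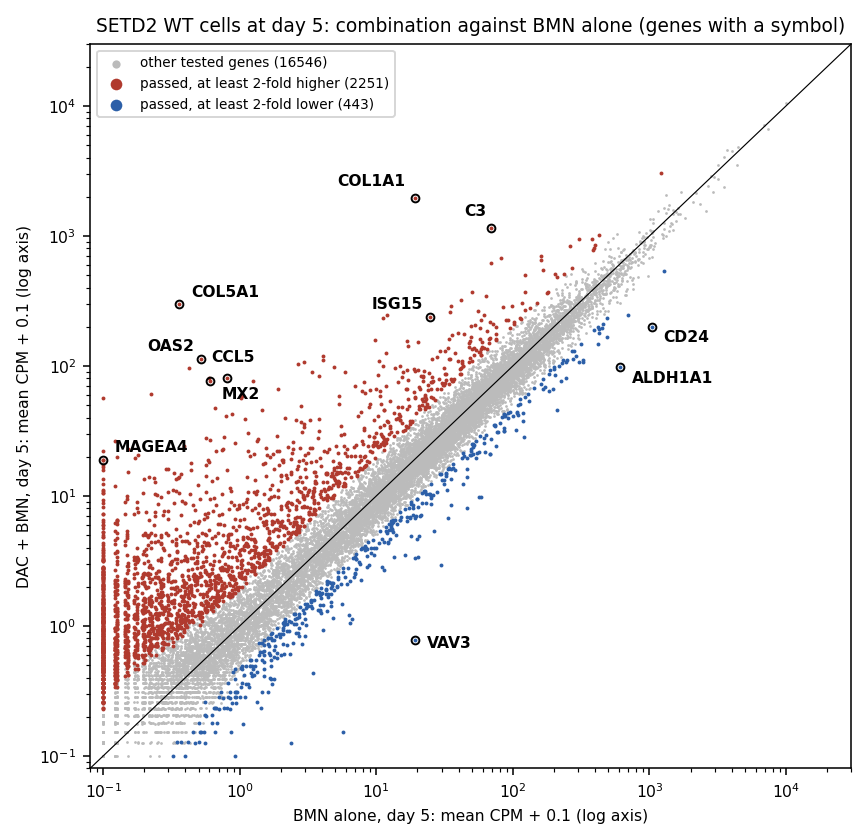
Mean CPM of each gene with a symbol in the 2 BMN libraries (horizontal) against the 2 combination libraries (vertical), both plus 0.1 on logarithmic axes, with genes called at least 2-fold higher or lower coloured. The cloud of rises sits at the left edge, where BMN alone was near 0, and the falls lie closer to the diagonal.

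Germline genes rose from near silence. The list of cancer-testis and germline genes, proteins normally made in testis and early germ cells, held 67 genes, of which 48 passed the filter on low counts. Of those 48, 47 were called higher and none lower, beside 19.8% of all genes tested higher and 15.7% lower. In 27 of the 48 both BMN libraries had 0 counts, so that they could enter only through other groups. The fitted median log2 difference of 7.58 depends on the prior count for such genes. With every group mean of the 48 genes that lay below a floor of 3 counts per library raised to that floor, the list's median was at least 18.13-fold.

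MAGEA4, a MAGE-family antigen gene on the X chromosome (GRCh38, as all gene positions here, which come from the count table, chrX:151912495-151925171), had 0 counts in both BMN libraries and 18.5 and 19.1 CPM with the combination. That is at least 127.6-fold higher (adjusted p = 4e-19). PNMA5, of the paraneoplastic antigen family, went from 0 in both libraries to 22.9 and 21.1 CPM, at least 149-fold higher. MAGEB2 (chrX:30215563-30220089) went from 0 to 12.8 and 14.2 CPM, at least 91.56-fold higher. All 3 were silent in the untreated WT libraries as well, and the groups did not overlap. Reads of MAGE-A genes can be shared between near-identical copies, so the split among them is uncertain, and the same holds for SPANXB1, which stood at 0 and 0.0455 CPM with BMN and at 24.9 and 27.9 CPM with the combination.

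Members with some counts in BMN rose as well. GCNA, a germ cell nuclear protein, stood at 0.844 and 1.00 CPM with BMN and at 58.8 and 53.4 CPM with the combination, a log2 difference of 5.91 ± 0.17 (SE). Each SE in this text was derived from the test's F statistic and may be too small for genes with few counts in a group. MAEL, which takes part in piRNA silencing of transposons, stood at 0.0527 and 0.0910 CPM and rose to 19.8 and 19.3 CPM, a log2 difference of 7.94 ± 0.31. MAGEC2 rose from 0.211 and 0.182 CPM to 18.6 and 13.6 CPM. In each case the lowest combination library was far above the highest BMN library. The tubulin genes TUBA3E and TUBA3D were at 0 with BMN and at 13.8 to 19.5 CPM with the combination, but these are near-identical copies of one another and their separate values are uncertain.

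The promoters of MAGEB2 and COL5A1 are printed because these genes went from near silence to clear expression. CG pairs, where the DNA methyltransferases that decitabine traps methylate cytosines, are shown in capitals. Each is the 250 bases before the gene's RefSeq start on its own strand (GRCh38.p14), for MAGEB2 chrX:30215313-30215562 and for COL5A1 chr9:134641553-134641802. Within those 250 bases MAGEB2 has 15 CG pairs and COL5A1 has 29.
MAGEB2: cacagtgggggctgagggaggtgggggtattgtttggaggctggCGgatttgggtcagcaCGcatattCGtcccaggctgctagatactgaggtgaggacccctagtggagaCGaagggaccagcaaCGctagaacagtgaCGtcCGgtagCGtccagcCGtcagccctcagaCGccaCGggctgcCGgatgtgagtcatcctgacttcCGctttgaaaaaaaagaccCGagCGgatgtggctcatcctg
COL5A1: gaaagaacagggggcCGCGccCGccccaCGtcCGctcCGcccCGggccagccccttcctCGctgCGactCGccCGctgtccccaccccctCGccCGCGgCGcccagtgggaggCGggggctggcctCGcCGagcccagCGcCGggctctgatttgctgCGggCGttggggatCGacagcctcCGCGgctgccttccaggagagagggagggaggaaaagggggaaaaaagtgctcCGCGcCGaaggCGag
Over the 40 of 48 tested germline genes with a RefSeq window of 300 bases (250 before to 50 after the start), the median was 13 CG pairs. Over all 27305 windows of the table it was 14. Of the germline windows 12.5% held 5 or fewer CG pairs, against 34.4% of all windows, and 12 of 40 held 20 or more, against 41.2% of all, and no test of these differences was run. Methylation was not measured in these libraries.

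Many collagen and other matrix genes followed, with a collagen V and a collagen I chain at the head. Of 46 matrix genes listed, 42 were tested, and 28 were called higher and 6 lower, with a median log2 difference of 1.45. Not all collagens rose, and the type III chain gene COL3A1 was not called (log2 0.22). COL5A1, which encodes the alpha-1 chain of type V collagen (chr9:134641803-134844843), stood at 0.158 and 0.364 CPM with BMN and at 301 and 293 CPM with the combination. The log2 difference was 10.08 ± 0.16 (adjusted p = 7e-31), with untreated cells as low as BMN. With so few counts in the BMN libraries, that standard error may be too small. COL1A1, the alpha-1 chain of type I collagen (chr17:50184101-50201632), rose from 19.6 and 18.8 CPM to 2010 and 1912 CPM, a log2 difference of 6.67 ± 0.12 (adjusted p = 1.3e-29). Both genes were low in every BMN library and high in every combination library.

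Another matrix gene rose from a higher start. LAMB3, a laminin beta chain, went from 35.6 and 34.3 CPM to 303 and 275 CPM (log2 3.05 ± 0.09). Among matrix proteases and their inhibitors, 15 of 27 tested genes were called higher and 4 lower, with a median of 1.08. MMP13, a collagenase, rose from 3.48 and 3.96 CPM to 38.8 and 38.5 CPM (log2 3.37 ± 0.12). The groups did not overlap for either gene.

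Genes used as markers of mesenchymal and of epithelial cells both rose. Of 28 mesenchymal genes listed, 24 were tested, with 15 called higher and 4 lower (median log2 0.69). Of 32 epithelial genes listed, 23 were tested, with 18 called higher and 2 lower (median log2 2.11). THY1, a surface glycoprotein of fibroblasts and other cells, rose from 1.06 and 0.819 CPM to 59.5 and 57.9 CPM (log2 5.97 ± 0.17). CDH1, E-cadherin, rose from 0.211 and 0.182 CPM to 10.9 and 10.1 CPM (log2 5.70 ± 0.31). The tight junction gene CLDN1 rose from 20.7 and 19.5 CPM to 154 and 151 CPM (log2 2.93 ± 0.10). KRT17, a stress-inducible keratin, rose from 0.633 and 0.910 CPM to 45.0 and 40.4 CPM, and KRT81 rose too, though its reads can be shared with a near-identical keratin. The mesenchymal and epithelial lists thus rose in the same libraries, and for each gene named the groups did not overlap.

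Markers of other cell types rose with these genes. Of 27 leukocyte genes listed, 13 were tested and 11 called higher, and the summed level of all listed members went from 6.91 and 8.14 CPM with BMN to 88.1 and 82.2 CPM with the combination. LAPTM5, a lysosomal membrane protein of blood cells, made up much of that, at 0.475 and 0.637 CPM with BMN and 46.8 and 47.7 CPM with the combination. Of 14 endothelial genes, 11 were tested and 8 called higher, and the summed level went from 36.5 and 36.3 CPM to 84.1 and 86.5 CPM, with ROBO4, a guidance receptor of vessels, rising from 0.475 and 0.546 CPM to 25.4 and 28.3 CPM. Of 14 fibroblast genes, 9 were tested and 7 called higher, with a summed level of 28.8 and 28.1 CPM against 2109 and 2014 CPM, a sum in which COL1A1 is the main part. Beside the counts of these 3 lists stand 19.8% higher and 15.7% lower of all genes tested. A listed gene near 0 with BMN could enter the test only through groups where it was higher. The shares of these lists called higher are therefore partly set by the filter on low counts. The fibroblast list's median log2 difference of 2.63 was 4.91 without the second BMN library. Of the defining markers, CD3E, PTPRC, PECAM1 and PDGFRA were at or near 0 in these libraries. The fibroblast markers PDGFRB (log2 2.27 higher with the combination), LUM (log2 2.63) and DCN rose, as did the endothelial marker VWF, from 0 and 1 counts with BMN to 6 and 4 with the combination (adjusted p = 0.041). Of other low markers, CD14 had 6 and 7 counts with BMN and 15 and 3 with the combination and was not called (adjusted p = 0.56), and CDH5, with 0 and 0 counts with BMN and 0 and 6 with the combination, was too low to be tested. In bulk RNA, fewer cells of a type and less RNA per cell cannot be told apart, and the part that other cells had in these results was not tested.

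Interferon-stimulated genes rose as a block. All 46 genes of the list were tested and all 46 were called higher, 45 of them at least 2-fold, with a median log2 difference of 3.07. The list's summed level went from 1629 and 1615 CPM with BMN to 8145 and 7990 CPM with the combination. OAS2, a synthetase of the 2-5A messenger that activates RNase L (chr12:112978395-113011723), rose from 0.527 and 0.319 CPM to 111 and 113 CPM, a log2 difference of 8.06 ± 0.15 (adjusted p = 3.2e-29). MX2, an antiviral GTPase, rose from 0.686 and 0.319 CPM to 75.9 and 75.7 CPM (log2 7.26 ± 0.13). MX1, its paralogue, rose from 2.64 and 3.05 CPM to 114 and 98.9 CPM (log2 5.22 ± 0.12). In all 3 genes both combination libraries stood well clear of both BMN libraries, and the BMN libraries were below 4 CPM in each. OAS2 and MX2 had few counts with BMN, so their standard errors may be too small.

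Further effectors behaved alike. IFI27, an interferon-inducible membrane protein, rose from 12.1 and 11.7 CPM to 235 and 254 CPM (log2 4.36 ± 0.08), CMPK2, a mitochondrial nucleotide kinase, from 0.211 and 0.364 CPM to 24.9 and 23.4 CPM, and RSAD2, the antiviral enzyme viperin, from 1.06 and 0.319 CPM to 43.1 and 39.6 CPM. ISG15, a ubiquitin-like modifier, and IFIT1, which binds foreign RNA caps, were picked for their promoters after their values were seen. ISG15 stood at 24.6 and 24.9 CPM with BMN and at 240 and 233 CPM with the combination (log2 3.26 ± 0.14), and IFIT1 at 14.5 and 18.7 CPM against 165 and 149 CPM (log2 3.23 ± 0.09). IFITM1 rose from 0.158 and 0.137 CPM to 9.04 and 11.3 CPM, but its reads may be shared with close copies.

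The signalling layer above these effectors moved less evenly. Of 26 genes for interferons, receptors and their transcription factors, 22 were tested, with 14 called higher, 2 lower and a median log2 difference of 0.46. The interferon genes IFNB1, IFNL1, IFNL2 and IFNL3 did not pass the filter on low counts and were not tested. Of the receptors, IFNGR2 rose from 44.3 and 43.0 CPM to 76.0 and 75.3 CPM (log2 0.79 ± 0.07). Of the transcription factors, IRF7 rose from 2.53 and 3.0 CPM to 31.0 and 30.3 CPM (log2 3.46 ± 0.20), IRF1 from 49.6 and 49.8 CPM to 132 and 137 CPM (log2 1.44 ± 0.07) and STAT2 from 75.9 and 73.7 CPM to 157 and 158 CPM (log2 1.07 ± 0.07). The kinase gene JAK1, looked up after the others, was lower, at 640.1 and 627 CPM against 477 and 442 CPM (log2 -0.46 ± 0.05).

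Sensors of viral-type nucleic acids rose with the effectors, 14 of 17 tested genes higher and 1 lower (median log2 1.20). IFIH1, the double-stranded RNA sensor MDA5, rose from 8.38 and 11.8 CPM to 91.4 and 79.1 CPM (log2 3.07 ± 0.13). TRIM25, which ubiquitinates the sensor RIG-I, rose from 123 and 123 CPM to 380.4 and 365 CPM (log2 1.60 ± 0.06). SAMHD1, a dNTP hydrolase that also degrades decitabine triphosphate, rose from 60.0 and 56.6 CPM to 233 and 219 CPM (log2 1.96 ± 0.07). Neither IFIH1 nor SAMHD1 overlapped between groups. Genes derived from retroviral elements gave 5 higher and 2 lower of 11 tested, with a median log2 difference of 0.32 that was 0.74 without the second BMN library. They were led by ERVH48-1, an envelope-derived gene that stood at 0 and 0.0455 CPM with BMN and at 2.21 and 2.05 CPM with the combination, while PEG10, a domesticated retrotransposon gene, fell from 974 and 977 CPM to 493 and 488 CPM.

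Antigen presentation by MHC class I rose throughout its list, all 21 tested genes being called higher with a median log2 difference of 0.94. TAP1, which carries peptides into the endoplasmic reticulum (chr6:32845209-32853816), rose from 56.2 and 55.3 CPM to 264 and 267 CPM, a log2 difference of 2.25 ± 0.09 (adjusted p = 6.7e-20). NLRC5, the transactivator of class I genes, rose from 17.6 and 16.4 CPM to 78.8 and 75.5 CPM (log2 2.18 ± 0.11), and B2M, the class I light chain, from 401 and 392 CPM to 841 and 855 CPM (log2 1.10 ± 0.06). HLA-B rose from 308 and 296 CPM to 1007 and 894 CPM (log2 1.65 ± 0.09), with the reservation that reads of HLA genes can be shared among near-identical members. None of these genes overlapped between the groups. Of the MHC class II list 7 genes were tested and 3 called higher, of which CD74, the invariant chain, was the most abundant, at 33.0 and 30.4 CPM against 130.0 and 132 CPM.

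Promoters of 3 of these genes are shown because interferon-stimulated genes are known to carry a response element bound by STAT and IRF factors. The motif searched was GAAA, any 2 bases and GAAA again, on both strands, matches may overlap one another, and capitals mark every base inside a match. Each sequence is again 250 bases before the RefSeq start (GRCh38.p14), on the gene's own strand: ISG15 chr1:1013247-1013496 (plus), IFIT1 chr10:89392373-89392622 (plus) and TAP1 chr6:32853705-32853954 (minus). Each held 2 matches, which overlap in ISG15 and in TAP1.
ISG15: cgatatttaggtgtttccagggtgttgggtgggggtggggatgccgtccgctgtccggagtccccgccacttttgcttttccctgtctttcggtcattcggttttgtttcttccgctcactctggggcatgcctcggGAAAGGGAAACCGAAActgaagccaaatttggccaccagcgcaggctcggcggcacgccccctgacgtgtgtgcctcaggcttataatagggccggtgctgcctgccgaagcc
IFIT1: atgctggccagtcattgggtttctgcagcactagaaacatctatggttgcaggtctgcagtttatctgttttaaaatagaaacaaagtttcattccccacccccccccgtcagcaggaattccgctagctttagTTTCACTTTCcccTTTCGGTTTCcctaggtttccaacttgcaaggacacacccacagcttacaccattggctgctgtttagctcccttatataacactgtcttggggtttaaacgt
TAP1: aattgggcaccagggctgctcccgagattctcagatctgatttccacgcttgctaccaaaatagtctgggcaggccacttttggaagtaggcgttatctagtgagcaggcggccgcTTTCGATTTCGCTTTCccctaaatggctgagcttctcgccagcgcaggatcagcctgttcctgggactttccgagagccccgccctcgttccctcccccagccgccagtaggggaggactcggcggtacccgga
In windows of 300 bases the motif was found in 28 of the 39 interferon-stimulated genes with a RefSeq entry (71.8%) and in 9 of 17 class I genes (52.9%). It was found in 2 of 40 germline genes (5.0%), in 0 of 33 mitosis genes and in 996 of all 27305 windows (3.65%). A match describes the letters only and was not tested for binding.

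Cytokine and chemokine genes of the NF-kB group rose, 37 of 38 tested genes being called higher and 1 lower with a median log2 difference of 2.59. CCL5, a chemokine for T cells and monocytes (chr17:35871491-35880793), rose from 0.580 and 0.819 CPM to 85.1 and 76.8 CPM, a log2 difference of 6.83 ± 0.20 (adjusted p = 1.3e-23). IL6 (chr7:22725884-22732002) rose from 4.90 and 3.0 CPM to 123 and 117 CPM (log2 4.94 ± 0.13), and CXCL8, which attracts neutrophils, from 5.22 and 4.37 CPM to 95.7 and 101 CPM (log2 4.36 ± 0.13). C3, the central complement component, went from 64.8 and 73.4 CPM to 1205 and 1106 CPM (log2 4.06 ± 0.09). For all 4 genes the 2 combination libraries lay close together and far above both BMN libraries. TNF rose from 1.32 and 1.05 CPM to 12.9 and 13.4 CPM (log2 3.48 ± 0.22).

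Immune checkpoint genes and ligands gave 13 higher and 1 lower of 19 tested (median log2 0.74). CD274, which encodes PD-L1, rose from 4.48 and 4.32 CPM to 21.7 and 23.7 CPM (log2 2.36 ± 0.12), and PDCD1LG2, PD-L2, from 3.16 and 2.59 CPM to 15.5 and 16.8 CPM (log2 2.49 ± 0.17). LGALS9, galectin-9, rose from 0.527 and 0.637 CPM to 13.0 and 14.3 CPM. Ligands of the EGF receptor and feedback genes of ERK signalling rose in 21 of 24 and fell in 1 (median log2 1.60). Among them TGFA, a ligand, went from 192 and 189 CPM to 333 and 333 CPM (log2 0.81 ± 0.05), HBEGF, another ligand, from 11.5 and 12.4 CPM to 38.4 and 36.8 CPM, and DUSP5, a phosphatase that dampens ERK, from 4.75 and 6.05 CPM to 36.3 and 32.4 CPM. In each of these the groups stood apart.

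Targets of p53 rose in part, with 20 of 31 called higher and 2 lower and a median log2 difference of 0.62. GDF15, a stress-induced secreted factor (chr19:18374731-18389176), stood at 10.1 and 10.5 CPM with BMN and at 109 and 111 CPM with the combination, a log2 difference of 3.41 ± 0.15 (adjusted p = 2.7e-19). PMAIP1, the pro-apoptotic protein NOXA, rose from 13.1 and 12.0 CPM to 55.9 and 51.3 CPM (log2 2.10 ± 0.13), and ATF3, a stress transcription factor, from 10.4 and 9.87 CPM to 42.7 and 40.2 CPM (log2 2.03 ± 0.12). CDKN1A, the cell cycle inhibitor p21, looked up after the others, rose from 151 and 145 CPM to 276 and 309 CPM (log2 0.98 ± 0.08). The groups did not overlap for any of the 4. Genes of the integrated stress response, the programme run by ATF4, were less uniform, with 10 of 26 higher and 4 lower. Their median log2 difference of 0.30 was 0.19 without the first BMN library and 0.08 without the first combination library.

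**Figure D2:**
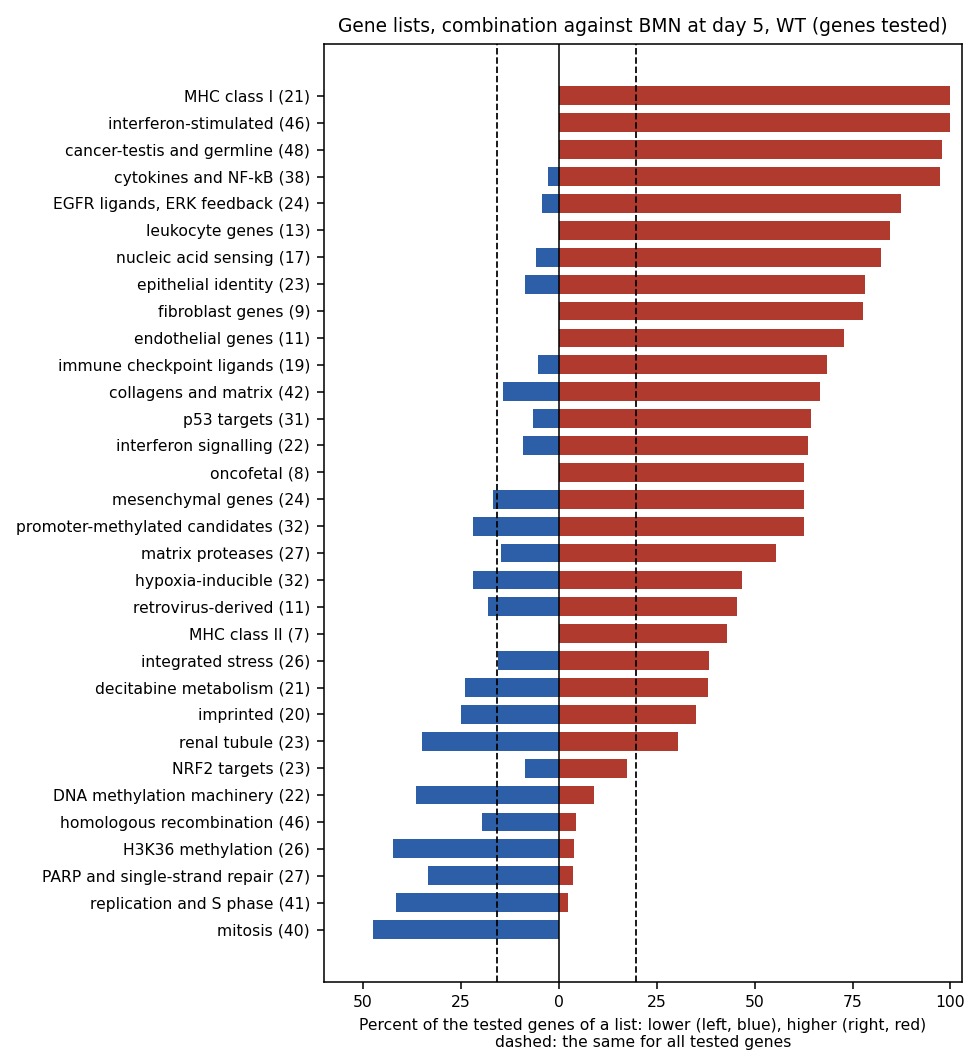
Share of each list's tested genes called higher (right) and lower (left) in the combination against BMN at day 5 in WT cells, in percent, with dashed lines at the shares over all 22527 genes (19.8% higher and 15.7% lower). Interferon-stimulated, MHC class I and germline genes lie at or near 100% higher, and the mitosis list has 0 higher and 19 of 40 lower.

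Among genes with counts in every library and at least 5 CPM with BMN, VAV3 fell the most on the log2 scale. VAV3 encodes a guanine nucleotide exchange factor (chr1:107571161-107965180) and went from 19.4 and 18.7 CPM with BMN to 0.645 and 0.719 CPM with the combination. The log2 difference was -4.79 ± 0.30 (adjusted p = 4.8e-15). ALDH1A1, a retinaldehyde dehydrogenase (chr9:72900671-73080442), fell from 617 and 605 CPM to 101 and 94.2 CPM (log2 -2.64 ± 0.06). CD24, a surface glycoprotein with near-identical pseudogenes, fell from 1036 and 1050 CPM to 209 and 192 CPM (log2 -2.38 ± 0.12). NEAT1, the noncoding scaffold of paraspeckles, lost more CPM, at 3519 and 3559 CPM against 2346 and 2437 CPM (log2 -0.57 ± 0.06). All 4 genes separated the groups. BCL2, the anti-apoptotic founder of its family, fell from 24.7 and 27.8 CPM to 4.57 and 6.01 CPM (log2 -2.31 ± 0.17), and SCD, the stearoyl-CoA desaturase, from 1274 and 1273 CPM to 543 and 522 CPM (log2 -1.26 ± 0.05). The noncoding gene LINC02532 fell from 28.2 and 31.2 CPM to 2.96 and 2.77 CPM, and SFRP4, a secreted Wnt antagonist, from 6.22 and 6.78 CPM to 1.13 and 0.924 CPM.

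The kidney list was split. Of 35 renal tubule genes, 23 were tested, with 7 called higher, 8 lower and a median log2 difference of -0.30. CDH6, the cadherin of proximal tubule precursors, fell from 489 and 485 CPM to 171 and 163 CPM (log2 -1.55 ± 0.07), and PDZK1, a scaffold of the brush border, from 121 and 120.0 CPM to 30.4 and 26.5 CPM (log2 -2.08 ± 0.10). PAX8, a lineage factor of the kidney, was lower at 375 and 378 CPM against 285 and 284 CPM. The members that rose were mostly low ones, such as the water channel gene AQP1 and the endocytic receptor gene CUBN, picked after their values were seen, which had fitted log2 differences of 3.49 and 2.41.

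Genes of DNA repair, replication and mitosis moved by small amounts and mostly downward, and none of those tested was called with a change of 2-fold or more. Of 46 homologous recombination and Fanconi genes, 9 were called lower and 2 higher (median log2 -0.09, or -0.15 without the first BMN library and -0.16 without the first combination library). FANCC, of the Fanconi core complex, fell from 44.3 and 45.7 CPM to 28.1 and 28.5 CPM (log2 -0.67 ± 0.08), and RPA1, the large subunit of the single-strand binding complex, from 176 and 177 CPM to 142 and 128 CPM (log2 -0.39 ± 0.06). Of 27 PARP and single-strand repair genes, 9 were lower and 1 higher. PARP1, the main target of talazoparib, stood at 276 and 261 CPM with BMN and 278 and 252 CPM with the combination and was not called (log2 -0.02 ± 0.07, adjusted p = 0.88), while PARP2 fell from 31.8 and 34.9 CPM to 25.4 and 20.4 CPM (log2 -0.54 ± 0.11, adjusted p = 0.00012). The shares lower in the 2 repair lists, 9 of 46 and 9 of 27, stand beside 15.7% of all genes.

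Of 41 S-phase genes, 17 were called lower and 1 higher (median log2 -0.12, or -0.22 without the first combination library), and of 40 mitosis genes, 19 lower and 0 higher (median log2 -0.25). MCM6, of the replicative helicase, fell from 149 and 148 CPM to 100.3 and 93.6 CPM (log2 -0.62 ± 0.06). CCNB1, cyclin B1, fell from 133 and 131 CPM to 106 and 99.1 CPM (log2 -0.36 ± 0.06), and CENPF, a kinetochore protein, from 579 and 587 CPM to 388 and 371 CPM (log2 -0.62 ± 0.11). In these 3 genes the groups did not overlap, though the shift was under 2-fold.

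The targets of decitabine and the genes of H3K36 methylation changed by small amounts, none of them called at 2-fold or more. DNMT1, the maintenance methyltransferase, stood at 309.8 and 302 CPM with BMN and 309.1 and 297 CPM with the combination, a log2 difference of -0.01 ± 0.07 that was not called (adjusted p = 0.9). UHRF1, which recruits DNMT1 to replicated DNA, had a log2 difference of -0.03 ± 0.08 (adjusted p = 0.84), and DNMT3A one of -0.25 ± 0.13 (adjusted p = 0.13). DNMT3B, a de novo methyltransferase, rose from 40.9 and 36.8 CPM to 62.7 and 52.8 CPM (log2 0.57 ± 0.10, adjusted p = 1.2e-05). These values are RNA levels and say nothing of the trapped protein. Of 22 DNA methylation genes 2 were higher and 8 lower (median log2 -0.20), and of 26 H3K36 genes 1 higher and 11 lower (median log2 -0.18), beside 19.8% higher and 15.7% lower of all genes tested.

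SETD2 itself, the enzyme that trimethylates lysine 36 of histone H3, stood at 133 and 134 CPM with BMN and at 117 and 114 CPM with the combination (log2 -0.22 ± 0.07, adjusted p = 0.02). That call was lost without the second combination library (adjusted p = 0.0502) and with no filter on low counts (adjusted p = 0.056). Of 21 genes of decitabine uptake and metabolism, 8 were higher and 5 lower. CDA, cytidine deaminase, which inactivates decitabine, rose from 0.896 and 1.18 CPM to 28.2 and 32.5 CPM (log2 4.85 ± 0.18), and the nucleoside transporter SLC29A1 from 38.8 and 35.4 CPM to 58.5 and 63.9 CPM (log2 0.72 ± 0.09). ABCC4, an efflux pump of nucleoside analogues, fell from 119 and 130 CPM to 76.9 and 77.2 CPM (log2 -0.69 ± 0.08).

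To see which of these levels DAC alone reached, the same genes were read in the 2 WT libraries given DAC alone and sampled at day 5. The comparison of the combination with DAC alone was added after seeing the data, and it shares the combination libraries with the comparison above, so the values of both are given side by side and not correlated. Of 22527 genes, 2769 (12.3%) were called, 1525 higher (6.77%) and 1244 lower (5.52%) in the combination than with DAC alone, with a change of 2-fold or more upward for 443 (1.97%) and downward for 124 (0.55%). The count of 2769 was 1513 without the second DAC library, 1732 without the first and 1639 without the second combination library. Of the 2587 genes at least 2-fold higher in the combination than with BMN, 1995 had mean levels within 2-fold of DAC alone, 553 were more than 2-fold above it and 39 were more than 2-fold below. BMN alone was within 2-fold of untreated cells for 2424 of those 2587. Of the 521 falls, 434 were within 2-fold of DAC alone and 87 further below it. A small constant was added to every mean before these ratios were taken, so a gene near 0 in both groups counts as within 2-fold. Of the 2587 rises, 1883 were below 1 CPM with BMN alone. The count of 2424 is therefore partly set by that constant and does not show that BMN left these genes unchanged. The counts against DAC alone used the same constant.

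Germline genes and COL1A1 stood near their level with DAC alone, while the collagen and matrix list had members on both sides. Of the 48 germline genes, 0 were higher and 2 lower than with DAC alone (median log2 -0.10), against 47 higher and 0 lower than with BMN. MAGEA4 had 22.6 and 24.1 CPM with DAC alone (log2 -0.31 ± 0.11 for the combination against DAC, adjusted p = 0.07). COL1A1 had 2009 and 1767 CPM with DAC alone (log2 0.05 ± 0.09, adjusted p = 0.79), while COL5A1, at 422 and 380 CPM, was lower in the combination (log2 -0.43 ± 0.08, adjusted p = 0.00012). Of the 42 collagen and matrix genes, 13 were higher, 7 of them at least 2-fold, and 5 lower than with DAC alone (median log2 0.17), beside 6.77% higher and 5.52% lower of all genes tested. The fibroblast marker list gave 1 higher and 2 lower of 9 (median log2 0.06), and the epithelial list 5 higher and 3 lower of 23 (median log2 -0.01). For MAGEA4, COL1A1 and COL5A1 the means with DAC alone and with both drugs were within 2-fold of each other.

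Most genes of the interferon-stimulated, class I, NF-kB, ERK and p53 lists stood above DAC alone, and most integrated stress genes were not called. Of the 46 interferon-stimulated genes, 45 were higher and 0 lower than with DAC alone (median log2 1.66), against 46 higher than with BMN (median log2 3.07). OAS2 had 11.6 and 10.8 CPM with DAC alone, so that the combination was higher by a log2 difference of 3.33 ± 0.09 (adjusted p = 5.4e-23). IL6 had 18.4 and 17.2 CPM (log2 2.76 ± 0.11), CCL5 24.8 and 21.4 CPM (log2 1.81 ± 0.12) and TAP1 139 and 126 CPM (log2 1.00 ± 0.09). Here the libraries with DAC alone lay between BMN alone and the combination, with no overlap. Of the class I list 18 of 21 were higher than with DAC alone (median log2 0.54), of the NF-kB list 32 of 38 (median log2 1.09), of the EGF receptor and ERK list 18 of 24 (median log2 1.19) and of the p53 list 24 of 31 with 1 lower (median log2 0.64). The integrated stress list gave 7 higher and 3 lower of 26 (median log2 0.04).

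GDF15 had 15.4 and 14.7 CPM with DAC alone, close to its 10.1 and 10.5 CPM with BMN, and 109 and 111 CPM with both (log2 2.87 ± 0.14 against DAC). CDKN1A had 90.9 and 88.5 CPM with DAC alone, below its 151 and 145 CPM with BMN, and the combination was above either. SCD had 1381 and 1358 CPM with DAC alone, near its level with BMN, and was lowest where both drugs were given (log2 -1.36 ± 0.05 against DAC). ALDH1A1, at 255 and 262 CPM with DAC alone, fell further in the combination (log2 -1.40 ± 0.06). H19, an imprinted noncoding gene, went the other way, with 5.12 and 5.37 CPM under BMN, 61.2 and 55.4 CPM with both drugs and 300 and 290 CPM with DAC alone (log2 -2.34 ± 0.09 against DAC).

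**Figure D3:**
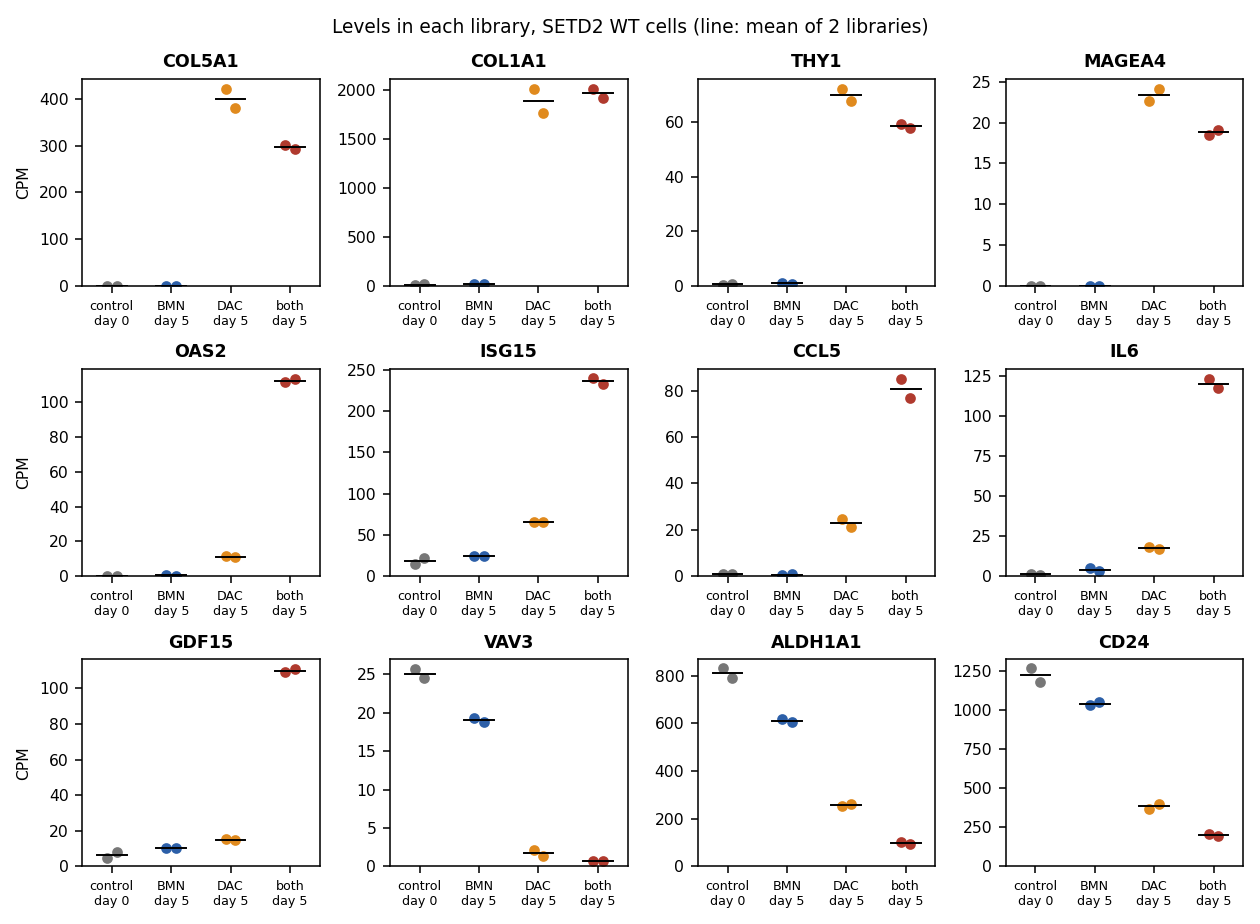
CPM of 12 genes in each library of WT cells (untreated at day 0, and BMN, DAC or both at day 5), 2 points a group with their mean as a line, on linear axes from 0. The collagen genes, THY1 and MAGEA4 are high with DAC alone and with both drugs, whereas OAS2, ISG15, CCL5, IL6 and GDF15 are highest with both and VAV3, ALDH1A1 and CD24 are lowest with both.

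**Figure D4:**
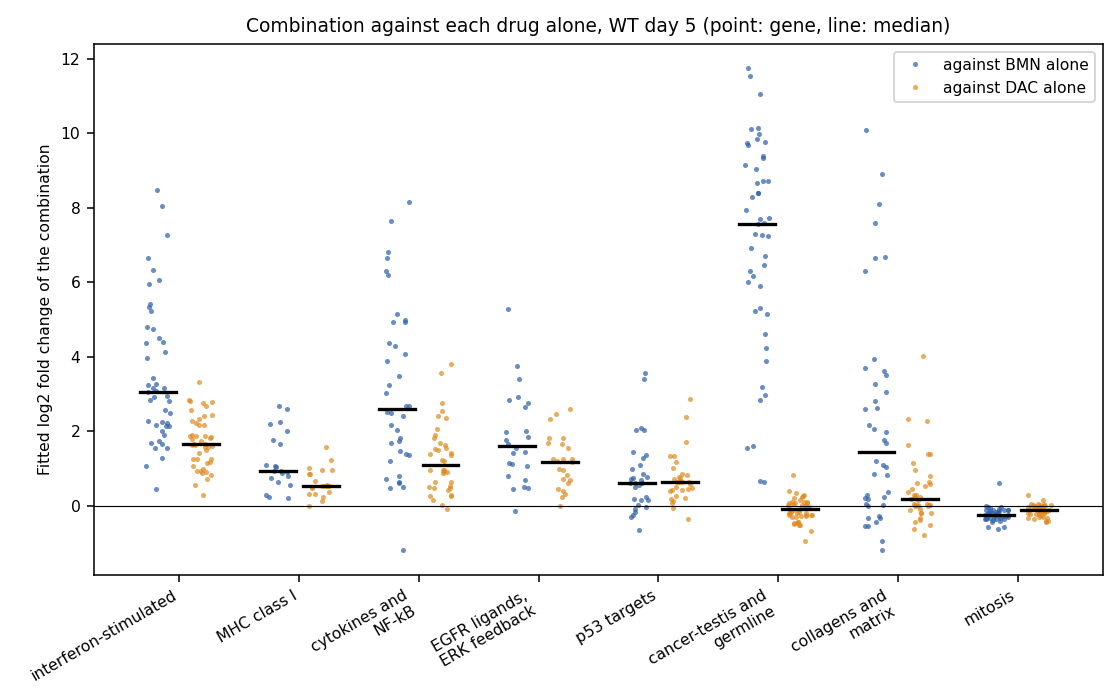
Fitted log2 difference of each tested gene in 8 lists, for the combination against BMN and for the combination against DAC, with the median of each list marked. The 2 comparisons share the combination libraries, and the fitted values of genes at 0 counts depend on the prior count; germline genes centre near 0 against DAC (median -0.10) and interferon-stimulated genes at 1.66.

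The same contrast in SETD2 KO cells, which shares no library with the WT contrast, called 9187 of 22527 genes (40.8%), 5168 higher (22.9%) and 4019 lower (17.8%). Of the 2587 genes at least 2-fold higher in WT, 1899 were also at least 2-fold higher in KO, which is 73.41% of the WT list and 62.43% of the KO list of 3042 (13.5% of genes tested). Of the 521 at least 2-fold lower in WT, 185 were so in KO (35.51% of the WT list and 33.58% of the KO list of 551, which is 2.45% of genes tested). Across the 22527 genes the fitted log2 differences of the 2 lines had a Pearson r of 0.774, given as a description, since genes are not independent replicates. The test of the difference itself called 2210 genes (9.81%), with 1036 (4.6%) higher and 1174 (5.21%) lower in KO than in WT, and a difference of 2-fold or more for 410 upward (1.82%) and 302 downward (1.34%). The 1036 higher genes became 667 without the first KO combination library, and the 1174 lower genes became 749 without the second KO BMN library and 747 without the second WT BMN library.

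Many immune genes responded less in KO. Of the 46 interferon-stimulated genes, 28 had a smaller and 1 a larger response in KO by that test, although 45 of the 46 still rose there (median log2 2.01). OAS2 was not among them (log2 6.73 ± 0.25 in KO, adjusted p of the difference 0.37), but MX2 was, at 4.70 ± 0.15 in KO against 7.26 ± 0.13 in WT (adjusted p = 5.3e-07). In the NF-kB list 22 of 38 had a smaller and 2 a larger response, in the class I list 11 of 21 smaller and 0 larger, and in the sensor list 9 of 17 smaller and 0 larger. IL6 rose by 2.62 ± 0.10 in KO against 4.94 ± 0.13 in WT (adjusted p of the difference 4.9e-12), and TNF by 0.19 ± 0.14, not called, against 3.48 ± 0.22. IFI27 and C3 went the other way, at 6.08 and 5.91 in KO against 4.36 and 4.06 in WT. Germline genes gave 2 larger and 0 smaller of 48.

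Other genes differed between the lines in both directions. CDH6 fell by 1.55 on the log2 scale in WT and changed by -0.09 ± 0.07 in KO, which was not called (adjusted p of the difference 2.3e-12). SCD fell by 1.26 in WT and by 2.55 in KO (adjusted p of the difference 5.2e-16). COL5A1 rose by 7.59 ± 0.13 in KO, less than in WT (adjusted p of the difference 1.4e-05), COL1A1 by 6.41 ± 0.13 with no call of a difference (adjusted p = 0.39), and ENG, the TGF-beta coreceptor endoglin, by 6.58 against 3.21 in WT (adjusted p = 3.8e-10). The S-phase list was lower in 31 of 41 in KO (median log2 -0.48), with a lower response than in WT for 17 genes and a higher one for 0.

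In WT cells sampled later, the contrast called 8996 genes (39.9%) at day 16, 4848 higher (21.5%) and 4148 lower (18.4%). At day 26 it called 9144 genes (40.6%), 4694 higher (20.8%) and 4450 lower (19.8%). In fits of only each contrast's own libraries the counts were 9324 at day 5, 9647 at day 16 and 6170 at day 26. Of the 2587 rises of at least 2-fold at day 5, 1880 were also found at day 16 (72.67% of the day 5 list and 67.05% of the day 16 list) and 1657 at day 26 (64.05% and 66.39%), beside 12.4% and 11.1% of all genes that rose that far on those days. Of the 521 falls, 268 were found at day 16 (51.44% and 24.04%) and 206 at day 26 (39.54% and 14.81%), beside 4.95% and 6.17% of all genes. The Pearson r of fitted log2 differences with day 5, across genes and as a description, was 0.779 for day 16 and 0.721 for day 26. The difference between day 26 and day 5 was tested and called 5047 genes (22.4%), 2418 (10.7%) with a higher and 2629 (11.7%) with a lower value at day 26, by 2-fold or more for 629 upward (2.79%) and 1109 downward (4.92%). The higher count exceeded the lower in every fit that left out 1 library, and the 2629 lower genes became 1743 without the first and 1698 without the second BMN library of day 5, 1738 without the first combination library of day 5 and 1681 without the first of day 26.

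Gene groups differed in how the response held. Of the 46 interferon-stimulated genes 34 had a larger response at day 26 than at day 5 and 0 a smaller one, with list medians of 3.73 at day 16 and 3.66 at day 26. ISG15 had log2 differences of 4.14 at day 16 and 4.27 at day 26 against 3.26 at day 5 (adjusted p of the last difference 0.00027). The class I list had 13 larger and 1 smaller of 21. In the NF-kB list 20 of 38 had a smaller and 1 a larger response at day 26 (median log2 1.52), with IL6 at 7.29 at day 16 and 2.88 at day 26 (adjusted p of the difference from day 5 4.9e-09). The p53 list had 16 of 31 smaller and 0 larger, among them GDF15 at 1.28 at day 26 against 3.41 at day 5, and the EGF receptor and ERK list 11 of 24 smaller and 0 larger.

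Germline genes kept their rise, with 46 of 48 called higher at day 16 and 43 at day 26, and 2 larger and 3 smaller responses at day 26 than at day 5. GCNA was among the smaller, with log2 differences of 5.91 at day 5, 3.14 at day 16 and 0.97 at day 26. COL5A1 had 11.56 at day 16 and 11.41 at day 26 (adjusted p of the difference between day 26 and day 5 0.15), and COL3A1, a type III collagen chain that was not called at day 5 (log2 0.22 ± 0.35), had 4.13 at day 26. ALDH1A1 fell by 7.49 at day 16 and by 3.60 at day 26, against 2.64 at day 5. The renal tubule list had 13 of 23 lower at day 16 (median log2 -1.25) and 13 at day 26 (median log2 -1.08). The mitosis list, with 19 of 40 lower at day 5, had 17 at day 16 and 8 at day 26.

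**Figure D5:**
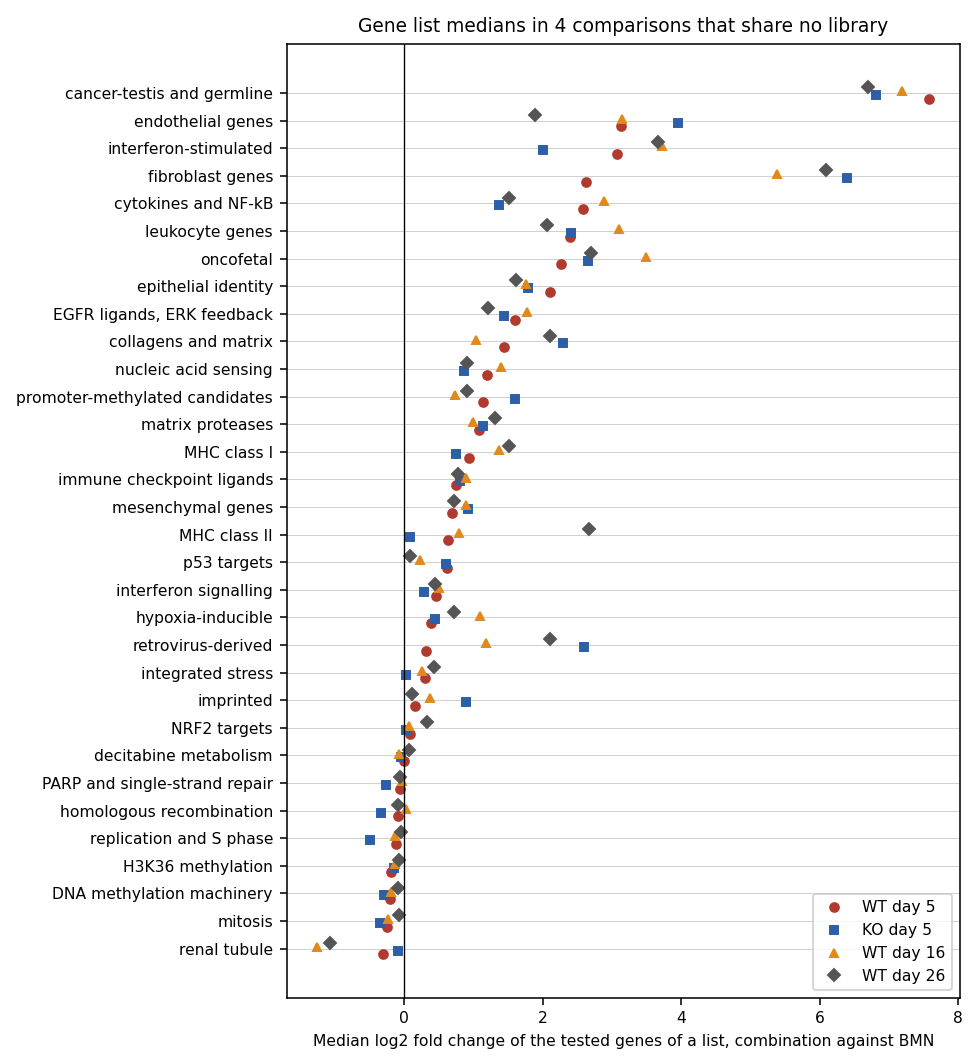
Median fitted log2 difference of each list for the combination against BMN in 4 contrasts that share no library: WT at day 5, KO at day 5, WT at day 16 and WT at day 26. Interferon-stimulated genes have medians of 3.07, 2.01, 3.73 and 3.66 in that order, and the NF-kB list 2.59, 1.37, 2.88 and 1.52; germline medians depend on the prior count.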

How the data were processed

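RNA-seq counts of 40 libraries were used, and the 4 of the contrast described and 16 others enter the comparisons. The library kit was KAPA RNA HyperPrep, used on 1 ug of total RNA, per the labels' protocols. The deposited values are raw counts per gene, made by the authors with featureCounts 1.5.0-p1 on the Ensembl 104 annotation of GRCh38 using primary alignments of mapping quality 20 or more and strand setting 1 and ignoring duplicates, per the file headers. FastQC, Trimmomatic and Partek are named per the submitters' processing notes. The header names 76 alignments, of which 40 are in the table. The series text spells the PARP inhibitor in more than 1 way.

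Of 60664 genes, 22527 passed edgeR's filterByExpr (minimum count 10, minimum total 15, over 20 groups). TMM scaling and a single quasi-likelihood fit of all 40 libraries, with a mean per group, were used (edgeR 4.0.16 in R 4.3.3). It left 20 residual degrees of freedom and gave a biological coefficient of variation of 0.07178. Benjamini-Hochberg adjustment was applied contrast by contrast, and all adjusted p in the text come from this fit. Standard errors are on the log2 scale. They were taken as the fitted log2 difference divided by the square root of the quasi-likelihood F. For genes with few counts in a group they may understate the counting error. A group at 0 counts was given a floor of 3 counts per library (0.1473 CPM with BMN at day 5), which covers counting error only. In list medians taken with the floor, every group mean below 0.1473 CPM was raised to it. The 37 mitochondrial genes had 0 counts in every library. On simulated data (22189 genes) made for this contrast, calls were recovered for 40 of 67 genes at 1.5-fold, 50 of 67 at 2-fold and 60 of 66 at 4-fold, with 5 false calls. Only these genes were changed, and they were drawn from genes with a mean of at least 10 counts with BMN. In the contrast itself 35.5% of genes were called and many rises began near 0, so these rates may not carry over to it.

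The named genes were the 7 drug and SETD2 genes always given, the largest rises and falls by fold or by CPM among genes with no overlap of libraries and at least 5 CPM in the higher group, genes at 0 with BMN, up to 4 members of each list by smallest p and the largest differences between lines and between days. Genes named outside this rule are said to be so. A few results the rule named are not reported. The members, the 32 gene lists and the tests were chosen with earlier results of these data known. Promoter sequences came from RefSeq (GRCh38.p14). They matched 84.8% of the interferon list, 81.0% of the class I list, 83.3% of the germline list and 82.5% of the mitosis list, but only 12766 of 19181 tested symbols, so no check over all changed genes was made. Alternatives were DESeq2 1.42.0, RLE scaling, no filter, a fit of the contrast's libraries only, a replicate block and leaving out each library.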

Additional observations from a re-analysis of the deposited data

Results flagged for a closer look

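The response to DAC on top of BMN differed between SETD2 KO and WT cells at day 5 for 2210 genes by an interaction test in edgeR. Those with the largest larger response in KO were CDH11, a mesenchymal cadherin, by 4.07 on the log2 scale (-0.67 in WT and 3.40 in KO), GNG4, a G protein gamma subunit, by 3.68 (0.94 and 4.62), CECR7 by 3.48 (0.43 and 3.91), ENG by 3.36 (3.21 and 6.58) and LINC01929 by 3.26 (1.32 and 4.58). The largest smaller responses in KO were those of INHBE, an activin subunit, by -4.37 (4.16 in WT and -0.21 in KO), SLC6A9, a glycine transporter, by -3.94 (2.16 and -1.78), H4C13, a histone gene with near-identical copies, by -3.78 (2.05 and -1.74), TNF by -3.29 (3.48 and 0.19) and TFCP2, a transcription factor, by -3.05 (3.43 and 0.38).

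Between day 26 and day 5 in WT cells 5047 genes differed in their response. CHST1, a sulfotransferase, had a response larger by 5.02 at day 26 (0.61 at day 5 and 5.63 at day 26), HTRA1, a serine protease, by 4.33 (-1.38 and 2.95), SLAMF7, a leukocyte receptor, by 3.96 (1.49 and 5.45), IGFBP5 by 3.91 (1.56 and 5.47) and COL3A1 by 3.90 (0.22 and 4.13). Smaller responses at day 26 were found for GCNA by -4.94 (5.91 at day 5 and 0.97 at day 26), MYO1G, a myosin of blood cells, by -4.24 (7.35 and 3.11), TMEM52B by -4.23 (3.12 and -1.11), IGSF9 by -3.80 (5.02 and 1.22) and KRT7, a simple epithelial keratin, by -3.24 (4.58 and 1.35).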

How the results depend on the processing

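No named gene changed its direction past the threshold in the alternatives run. The count of 7988 genes was 7157 with DESeq2, 7859 with RLE scaling, 7595 with no filter, 9324 with only the contrast's libraries and between 6192 and 6610 when 1 library was left out. The 9144 genes called in WT at day 26 became 6170 (3417 higher and 2753 lower) in a fit of only that contrast's libraries. The 2210 genes that differed between KO and WT became 4420 (2061 higher and 2359 lower) in a fit of only the libraries of that comparison. With no filter the split between KO and WT went from 1036 higher and 1174 lower to 732 and 1370. Against DAC alone the 2769 genes became 1513 to 1892 when 1 library was left out, 1513 without the second DAC library. The balance of the 5047 genes differing between days 26 and 5 turned from 2418 higher and 2629 lower to 2492 and 2282 with DESeq2, 2592 and 2472 with RLE scaling and 2064 and 2044 with only those libraries. It also turned in all 8 fits that left out 1 library, from 2532 and 2080 without the second combination library of day 26 to 2576 and 1681 without the first. Replicate numbers did not pair the libraries (correlations of deviations 0.0169, 0.0552 and 0.00852 at day 5 in WT), and a replicate block gave 8125 calls in the main contrast. Calls of SETD2, FLNA, HLA-DPB1, CIITA and LIN28B in the main contrast and of LINC01929 between lines were lost when 1 library was left out, and DNMT3A was called without the first BMN library (adjusted p = 0.026). Among the list medians that moved over 1.5 times were those of fibroblast markers (2.63 to 4.91 without the second BMN library), retroviral genes (0.32 to 0.74, same library), homologous recombination and Fanconi genes (-0.09 to -0.16 without the first combination library), S-phase and H3K36 genes (-0.12 to -0.22 and -0.18 to -0.27 without the first combination library), integrated stress genes (0.30 to 0.08, same library), PARP and single-strand repair genes (-0.06 to -0.12 without the first library of either group) and, in a fit of only the contrast's libraries, MHC class II (0.63 to 1.26), oncofetal genes (2.27 to 1.30) and promoter-methylated candidates (1.14 to 0.43). Medians near 0 (NRF2 targets, decitabine metabolism and single-strand repair) also moved over 1.5 times or turned sign, by small amounts. The cause of these shifts was not tested. In simulated data with 2 libraries a group, changes of 1.5-fold were recovered in part only (59.7%). Far fewer genes were changed there than were called here, so that rate may not carry over.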

Other observations

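Hypoxia-inducible genes, which 786-0 cells run at a high level for lack of VHL, gave 15 of 32 higher and 7 lower in the combination than with BMN at day 5 (median log2 0.40), beside 19.8% higher and 15.7% lower of all genes tested. STC2, a secreted stanniocalcin, rose from 32.3 and 32.3 CPM to 90.6 and 81.8 CPM and CA12, a carbonic anhydrase, from 106 and 106 CPM to 200.4 and 204 CPM, whereas ENO1, a glycolytic enzyme, fell from 2960 and 2908 CPM to 2198 and 2153 CPM. Targets of NRF2, the oxidant-response factor, gave 4 higher and 2 lower of 23, shares near or below those of all genes. ABCC3, an efflux pump, rose from 83.8 and 77.7 CPM to 156 and 151 CPM, and TKT, transketolase, fell from 679 and 681 CPM to 408 and 378 CPM. Imprinted genes gave 7 higher and 5 lower of 20, beside the same 19.8% and 15.7%, from NNAT at 0 and 0.0455 CPM against 4.03 and 2.98 CPM to KCNQ1OT1, a noncoding gene that silences its neighbours, at 112 and 120 CPM against 73.2 and 74.1 CPM. Of 10 oncofetal genes listed, 8 were tested, 2 of them with 0 counts in both BMN libraries, and 5 were higher. HMGA1, a chromatin protein, rose from 3.64 and 2.87 CPM to 88.1 and 91.9 CPM. Of 44 listed genes described as promoter-methylated in kidney and other tumours, 32 were tested, with 20 higher and 7 lower. In 5 of the 32 both BMN libraries had 0 counts, so they could enter only through other groups. The fitted median log2 difference of 1.14 was 0.40 with a floor of 3 counts per library. The shares higher in this list and the oncofetal list are partly set by the filter on low counts. XAF1, a pro-apoptotic interferon target, rose from 5.54 and 5.96 CPM to 92.6 and 86.8 CPM.

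By class, 23.2% of 1427 long intergenic noncoding genes tested were at least 2-fold higher, against 12.59% of 14242 protein-coding and 11.51% of 1590 antisense genes. By chromosome the share ran from 8.321% on chromosome 14 to 15.17% on the X chromosome. These shares are descriptions with no test.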
